A study of Allium mongolicum with 12 samples.

Results

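The features described here are 155 assembled transcripts of Allium mongolicum roots that stayed near their control level at 24 h and 48 h of saline-alkali treatment and stood higher in every library at 72 h. They are called late features. They were chosen by their measured values from 98328 features, using CPM, counts per 1000000 counts of a library. A mean of at least 5 CPM over the 12 libraries left 20612 features, and a mean of at least 1 CPM in control roots left 20522. All 3 libraries of the 72 h group had to lie above all 9 others, which left 1322 (6.44% of the 20522). The 72 h mean had to be at least 1.5 times the highest other group mean, which left 312. Means at 24 h and 48 h had to lie within 1.5-fold of the control mean, which left 155 (0.752% of the 20612), under the limit of 200 that the rule sets. The rise at 72 h and the flat earlier course are therefore the choice itself and not findings, and they are given below as a description.

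Allium mongolicum is a wild onion of dry steppe and desert. Its seedlings had 7 days of germination, 45 days in substrate soil and 7 days in diluted Hoagland nutrient solution. The growth temperature was 25 °C for all groups. The 4 groups are root samples taken at 0 h (CK, unstressed), 24 h (T24), 48 h (T48) and 72 h (T72) of a saline-alkali solution of NaCl, Na2SO4, NaHCO3 and Na2CO3 in parts of 1, 9, 9 and 1, at a total of 150 mmol/L. Each group has 3 libraries, drawn from 20 seedlings by a division that the labels do not give, so spreads between libraries may be technical. The labels name no difference in genotype between groups. No unstressed group at 24, 48 or 72 h was analysed here, so hours of treatment, plant age and harvest time cannot be told apart.

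Saline-alkali soil burdens a root in several ways at the same time. Sodium enters and competes with potassium, the salt lowers the water potential outside the root, and carbonates raise the pH, which makes iron and phosphate hard to take up. Roots are known to answer within minutes to hours with calcium and hormone signals, and over longer times with ion transport, compatible solutes, antioxidant enzymes and changes of the cell wall, to which the phenylpropanoid route supplies lignin. The deposited table identifies features by assembly IDs and does not pair them with gene names, so none of the late features can be placed in such a process here. In bulk roots, a higher level per cell and a larger share of cells that hold a transcript cannot be told apart.

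Library totals ran from 23099287 to 26388120 estimated counts, and a count of 3 stood for 0.114 to 0.13 CPM. Every late feature was far above that: the smallest value among them was 19.9 counts, and the smallest at 72 h was 140.7. Libraries differed in how closely they followed their group. Over the 20612 features, Pearson correlations of log2(CPM + 1) within a group averaged 0.990 for each T24 library, 0.906 to 0.920 for the CK libraries and 0.935 to 0.943 for the T72 libraries. For T48 replicate 2 the average was 0.864 with the other T48 libraries and 0.903 with the CK libraries. In the 1899 features at 100 CPM or more, the median coefficient of variation between libraries was 14.1% in CK, 3.3% in T24, 15.8% in T48 and 11.5% in T72, against 1.56% to 1.62% from counting alone. Library preparation adds spread of its own, even from the same RNA, so these values do not show whether the T24 libraries are separate samples. They were entered as 3, as the labels give them, and counts are also given with their average entered as 1. Results are also given without T48 replicate 2.

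The late features together made up a small part of root RNA that was larger at 72 h. Their summed level was 5159, 4997 and 5046 CPM in the CK libraries, 5882, 5956 and 5892 CPM in the T24 libraries, 5485, 4327 and 5999 CPM in the T48 libraries and 12259, 10202 and 10971 CPM in the T72 libraries. The lowest T72 sum was above the highest of the others, as the rule requires of every member. T48 replicate 2 had the lowest sum of the 12 libraries. The group means were 5067 ± 83 CPM in CK, 5910 ± 40 in T24, 5270 ± 856 in T48 and 11144 ± 1040 in T72 (SD, n = 3 each), and the T48 mean was 5742 without replicate 2. As a share of all counts, the late features held 1.02% to 1.23% of a T72 library and 0.5% to 0.516% of a CK library.

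**Figure D1:**
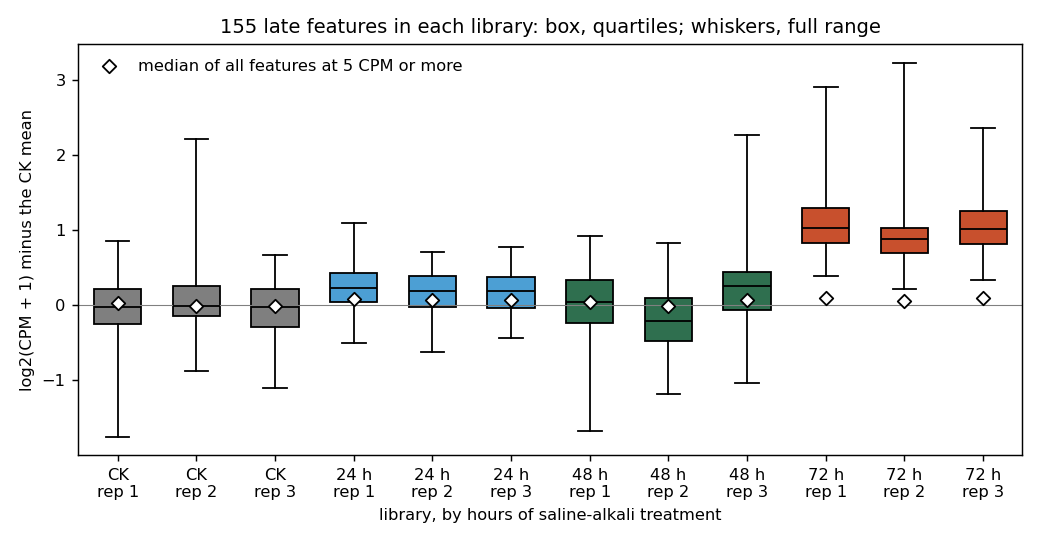
Difference of each of the 155 late features from its CK mean, on the scale log2(CPM + 1), in the 12 libraries in order of treatment time. Boxes give quartiles with the median, whiskers the full range, and diamonds the median of all 20612 features at 5 CPM or more. The T72 medians are 1.03, 0.88 and 1.01, T48 replicate 2 has the lowest median at -0.21, and the diamonds lie between -0.01 and 0.10.

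Scaling moved these values. With library totals, as in the rule, the median of all 20612 features stood 0.06 to 0.10 above the CK mean in the T72 libraries, on the log2(CPM + 1) scale, and the median of the late features 0.88 to 1.03 above it. With TMM factors, which set the bulk of features level between libraries, the median of all features stood at -0.05 to -0.03 and that of the late features at 0.79 to 0.89. In the T24 libraries the median of the late features was 0.18 to 0.22 with library totals and 0.07 to 0.09 with TMM factors. The rule applied to TMM-scaled CPM gave 140 features, of which 117 were among the 155.

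Most late features were of moderate abundance. The 72 h mean ran from 7.36 to 1397 CPM with a median of 21.9, against 3.48 to 590.5 CPM with a median of 10.9 in CK. Of the 155, 98 had a mean of 5 to 20 CPM over all libraries, 43 had 20 to 100 CPM and 14 had 100 CPM or more. These were 0.915%, 0.537% and 0.737% of all features at those levels. The median ratio of the 72 h mean to the CK mean was 2.07, 2.06 and 2.16 in the 3 classes. The rule sets a floor for this ratio at every level, so the similar medians are a description. A few features carried much of the sum, since the 14 most abundant held 57.2% of the summed 72 h level and the 10 highest at 72 h held 50.9%.

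The differences were of moderate size. The ratio of the 72 h mean to the CK mean ran from 1.51 to 4.83 with a median of 2.08 and quartiles of 1.76 and 2.3. The median of the same ratio over 20610 features at 5 CPM or more was 1.06. It was 2 or more for 89 late features and 3 or more for 8. Against T24 the median ratio of the late features was 1.75, and against T48 it was 2.01. Against whichever other group was highest, the ratio was at least 2 for 27 late features and below 1.6 for 48.

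Many features lay close to the threshold on either side. The member nearest to it had a 72 h mean of 8.43 ± 0.165 CPM (SD, n = 3), 1.502 times its highest other group mean of 5.62 CPM. The nearest feature left out had 19.8 ± 4.31 CPM at 72 h, 1.497 times its highest other group mean of 13.3 CPM. Among features that met the other criteria, 48 had a ratio of 1.5 to 1.6 and 84 a ratio of 1.4 to 1.5. The gap between single libraries was narrower than that between means. The lowest T72 library was 1.22 times the highest other library at the median of the late features, less than 1.1 times for 34 of them and at least 1.5 times for 14.

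**Figure D2:**
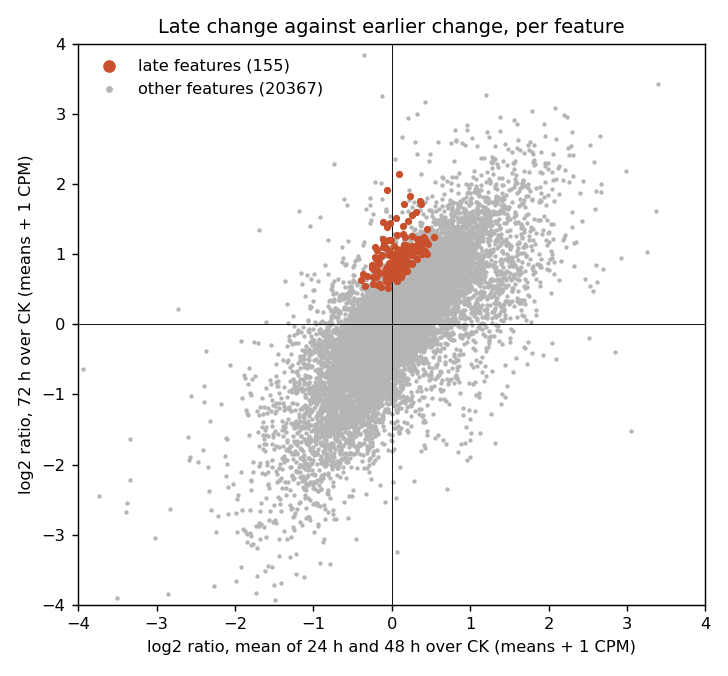
Each point is a feature with a mean of at least 5 CPM and a CK mean of at least 1 CPM. The x axis is the log2 ratio of the averaged T24 and T48 means to the CK mean and the y axis that of the T72 mean to the CK mean, with 1 CPM added to each mean; 11 features lie outside the axes. The 155 late features sit near 0 on the x axis and towards the upper side of the cloud of the 20367 others, where the rule places them.

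The late feature with the largest difference, counted as the ratio of means with 1 CPM added to each, was TRINITY_DN38540_c0_g1_i4_3. Its level was 10.5, 8.19 and 7.47 CPM in the CK libraries, 10.9, 10.6 and 10.7 CPM in the T24 libraries, 4.47, 9.23 and 10.4 CPM in the T48 libraries and 71.2, 24.8 and 30.2 CPM in the T72 libraries. All 9 earlier libraries were near or below 11 CPM and all T72 libraries above 24 CPM. That T72 lies above the other libraries is required of every member by the rule. T72 replicate 1 stood well above the other T72 libraries. The mean was 42.1 ± 25.4 CPM in T72 and 8.72 ± 1.59 CPM in CK (SD, n = 3 each), a 4.83-fold difference, and the lowest T72 library was 2.29 times the highest other library. The fitted log2 difference with TMM scaling was 2.13 against CK, 1.97 against T24 and 2.34 against T48.

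The most abundant late feature at 72 h was TRINITY_DN43267_c1_g2_i10_1. It had 725.0, 558.1 and 488.3 CPM in the CK libraries, 875.7, 887.7 and 869.6 CPM in the T24 libraries, 917.9, 630.4 and 961.4 CPM in the T48 libraries and 1512, 1294 and 1385 CPM in the T72 libraries. The T72 libraries agreed closely and lay above the other 9, as the rule requires. The T24 libraries, and T48 replicates 1 and 3, lay above all CK libraries. The mean was 1397 ± 109.7 CPM in T72 and 590.5 ± 121.6 CPM in CK (SD, n = 3 each), a 2.37-fold difference. The 72 h mean was 1.59 times the T24 mean of 877.7 ± 9.22 CPM and 1.67 times the T48 mean of 836.6 ± 179.9 CPM. This feature is thus one whose earlier means lay near the upper edge of the 1.5-fold band.

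**Figure D3:**
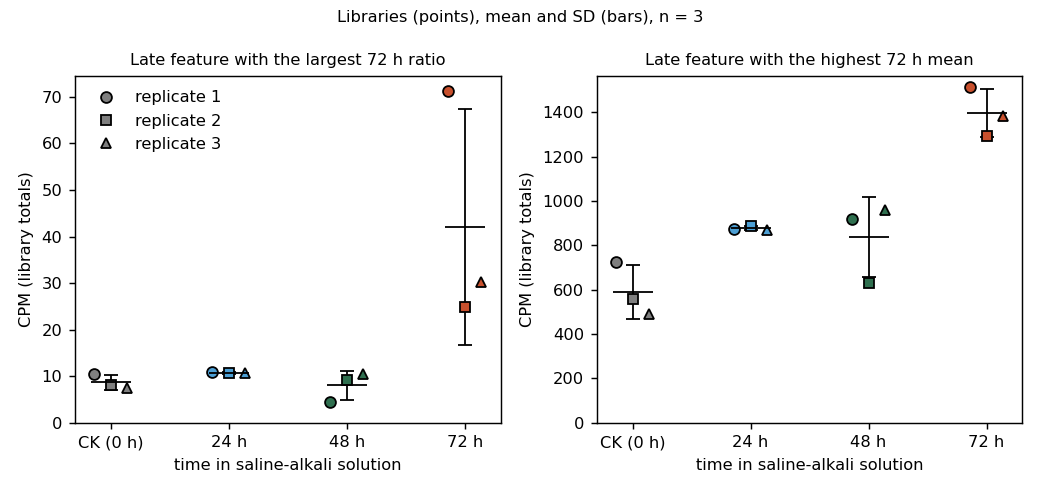
CPM of the late feature with the largest 72 h ratio (left, TRINITY_DN38540_c0_g1_i4_3) and of that with the highest 72 h mean (right, TRINITY_DN43267_c1_g2_i10_1) by time of treatment. Points are libraries, with a symbol for each replicate number, and bars are the mean and SD (n = 3). On the left T72 replicate 1 lies at 71.2 CPM and the others at 24.8 and 30.2; on the right the T72 libraries lie between 1294 and 1512 CPM.

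Not every late feature was steady before 72 h. One of them, singled out after its values were seen because it was alone in having a library under 1 CPM, had 0.85, 27.7 and 3.56 CPM in the CK libraries, 12.3, 6.69 and 8.53 in T24, 0.95, 3.8 and 29.0 in T48 and 41.8, 57.3 and 30.8 in T72. Its lowest T72 library and its highest T48 library nearly touch, and its CK libraries span far more than the difference between the CK and T24 means. Over all late features, the coefficient of variation between libraries had a median of 25.9% in CK, 7.77% in T24, 27.2% in T48 and 13.1% in T72. Over all features at 5 CPM or more it was 18.6%, 6.21%, 20.8% and 13.4%. The late features thus had a larger median spread than all features in CK, T24 and T48 and a near equal one in T72. Their median level was lower in CK, T24 and T48, at 10.9, 12.6 and 11 CPM against 18.1, 18.7 and 18.7. In T72 it was higher, at 21.9 against 18.8 CPM. Spread was not compared at equal level, and no test was made of it, since the same values chose the late features.

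Within the 1.5-fold band, the late features had no single earlier course. The T24 mean was above the CK mean for 109 of 155 (70.3%), against 55.4% of the 12790 features that met the criteria on level and band. The T48 mean was above the CK mean for 81 (52.3%, against 52.9%). T24 was the highest of the 3 earlier group means for 91, T48 for 35 and CK for 29 (58.7%, 22.6% and 18.7%, against 37.4%, 33.3% and 29.3% of the 12790). Means that climbed at each time, from CK through T24 and T48 to T72, were seen for 18. For 77 both earlier means lay between 20% below and 25% above CK (49.7%, against 58.5% of the 12790). The 12790 did not have to meet the criteria on T72, which bear on the CK, T24 and T48 libraries too. The same values chose the late features, so these differences in share are a description. The part that the smaller spread of the T24 libraries has in them was not tested. The T24 mean was at least 25% above CK for 49 and at least 20% below it for 7. The T48 mean was at least 25% above CK for 22 and at least 20% below it for 20. The median ratio to CK was 1.14 at 24 h and 1.01 at 48 h. The shift at 24 h is smaller with TMM scaling, as given above. The median fitted log2 difference from CK with TMM scaling was 0.048 at 24 h for the late features. It was 0.078 for all 76273 features tested, so the late features were not the higher of these. At 48 h these medians were -0.083 and 0.05. Beside features at 5 CPM or more, the order at 24 h was the reverse. There the TMM-scaled medians in the T24 libraries were 0.07 to 0.09 for the late features and -0.06 for all.

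T48 replicate 2, the library that resembled CK over all features, was also low in the late features. It was the lowest T48 library for 92 of them (59.4%), against 44.9% of all 20612 features, and the lowest of the 12 libraries for 56. T48 replicate 3 was the highest T48 library for 72 (46.5%, against 35.9%) and the highest of the 9 earlier libraries for 32, more than any other. The T48 values were among those that chose the late features, and the 20612 did not have to meet the rule on them. These shares are therefore a description. No share over all features stands beside the counts of 56 and 32, so nothing is read from them. Without T48 replicate 2 the rule gave 132 features, 118 of them among the 155. The part of this library in the flat course at 48 h was not tested beyond that.

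At 72 h the libraries ranked alike for many late features. Replicate 1 was the highest T72 library for 79 (51.0%, against 34.3% of all 20612 features), replicate 3 for 53 (34.2%, against 36.2%) and replicate 2 for 23 (14.8%, against 29.6%). Replicate 2 was the lowest for 86 (55.5%, against 37.5%). The T72 values were among those that chose the late features, and the 20612 did not have to meet the rule on them. These shares are therefore a description. The highest T72 library was at least 1.5 times the mean of the other T72 libraries for 17 late features, and in 12 of these it was replicate 1. No share over all features stands beside these 2 counts. Without T72 replicate 1 the rule gave 161 features, 125 of them among the 155. Deviations from group means on the log2(CPM + 1) scale had a median Pearson correlation of 0.13 between late features over the 12 libraries, with 19.9% of pairs above 0.5. Over all pairs of the 20612 features the median was 0.01, with 14.1% above 0.5. Over the 6 CK and T48 libraries alone these were 0.14 and 27.3% for the late features and 0.01 and 22.2% for all. These correlations share libraries and few degrees of freedom and are a description.

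**Figure D4:**
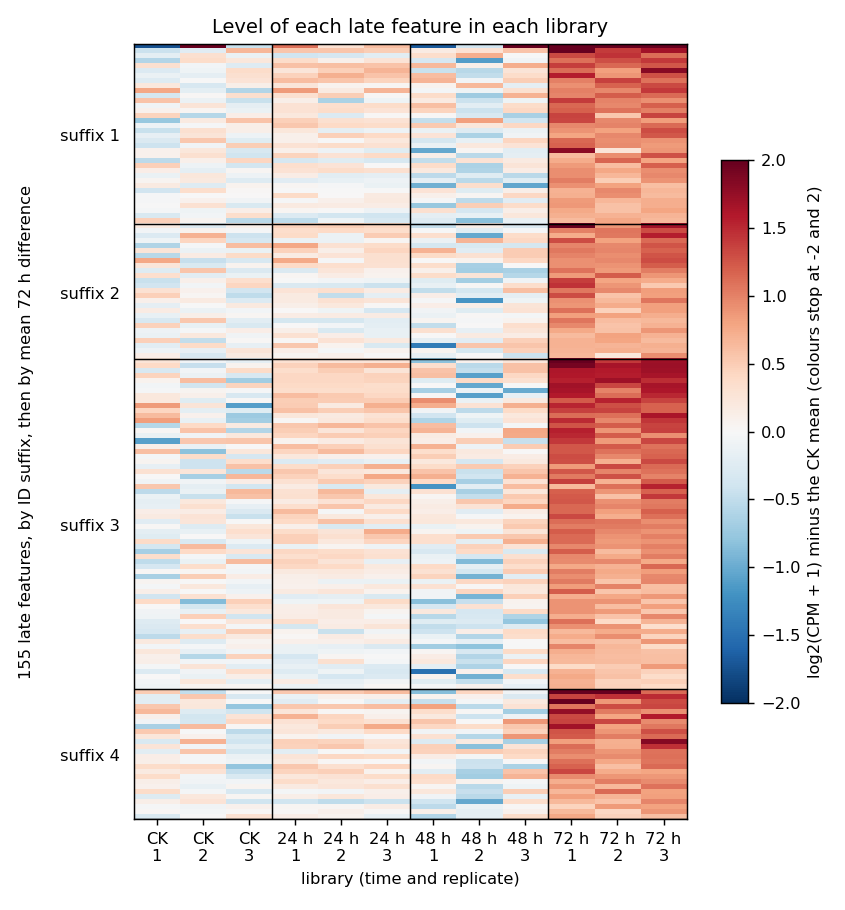
Each row is a late feature and each column a library in order of time and replicate; colour gives log2(CPM + 1) minus the CK mean of the feature, with colours stopping at -2 and 2. Rows are grouped by the last number of the ID (36, 27, 66 and 26 rows for suffixes 1 to 4) and sorted by the mean 72 h difference. The T72 columns are red throughout, as the rule requires, and blue cells gather in T48 replicate 2.

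The last number of the feature IDs was not used by the rule, and it was unevenly spread among the late features. The IDs look like those of the assembler Trinity and end in a further number from 1 to 4, here called the suffix, which no header explains. Suffix 3 was carried by 66 of 155 late features (42.6%), against 24.0% of the 20612 features at 5 CPM or more. Suffixes 1, 2 and 4 were carried by 23.2%, 17.4% and 16.8%, against 27.2%, 23.8% and 25.0%. Seen the other way, 1.33% of features with suffix 3 were late features, against 0.643%, 0.55% and 0.504% of those with suffixes 1, 2 and 4. No test was made over features, which are not replicates. The share of suffix 3 was 34.2% without T72 replicate 1 and 37.4% to 43.2% without any other library, and 40.0% with TMM-scaled CPM. The 37.4% and 43.2% came without T72 replicates 2 and 3, from sets of 227 and 213 features, over the limit of 200.

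Suffix shares of other sets are set beside these. The 1322 features with all T72 libraries above the 9 others, from which the late features were drawn, carried suffix 3 in 31.7% and suffix 1 in 30.9%. The 157 features that met every criterion other than the band carried suffix 3 in 43.3% and suffix 1 in 35.7%. With T24 in the place of T72 in the rule, 60 features were raised only at 24 h, and 41.7% of them carried suffix 1 and 16.7% suffix 3. With T48 in its place, 60 features were raised only at 48 h, 11.7% with suffix 3. With the rule turned round, 98 features were lowered only at 72 h, 18.4% with suffix 3. Features almost restricted to a time, with at least 10 counts in every library of it and at most 3 in each of the other 9, leaned more sharply. There were 4 such features for T72, all with suffix 3, 15 for T48, 11 of them with suffix 4 and 4 with suffix 2, 1407 for T24, 1272 of them with suffix 1 and 135 with suffix 2, and 0 for CK. The part that the making of the assembly has in the 42.6% was not tested.

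**Figure D5:**
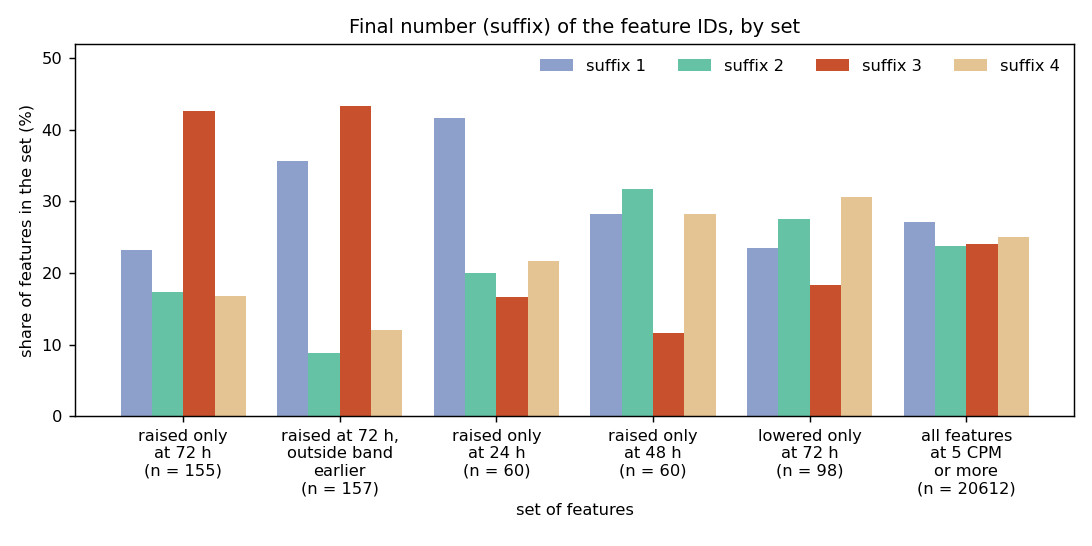
Share of features (percent) that carry each ID suffix, for the late features, for features raised at 72 h that left the 1.5-fold band at 24 h or 48 h, for the sets that the same rule gives at 24 h and 48 h and for falls at 72 h, and for all features at 5 CPM or more. Suffix 3 stands at 42.6% in the late features and at 24.0% in all features; suffix 1 is highest, at 41.7%, in the features raised only at 24 h.

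Levels and ratios of the late features are given by suffix as a description, since the rule confines the ratios. The median ratio of the 72 h mean to the CK mean was 2.09, 1.95, 2.13 and 2.11 for suffixes 1, 2, 3 and 4. Median 72 h levels were 22.4, 23.2, 20.4 and 29.7 CPM. Median ratios to CK lay between 1.08 and 1.18 at 24 h and between 0.955 and 1.03 at 48 h. T72 replicate 1 was the highest T72 library for 41 of the 66 late features with suffix 3, for 14 of 36 with suffix 1 and for 12 each of those with suffixes 2 and 4. No share over all features of each suffix stands beside these counts, so nothing is read from them.

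The order of the sets by size changed when T48 replicate 2 was left out. The 155 late features compare with 98 lowered only at 72 h, 60 raised only at 24 h and 60 raised only at 48 h. Without T48 replicate 2 the same rules gave 132, 98, 48 and 195, so that the 48 h set was then the largest of the 4. Fewer T48 libraries then had to lie above the others, so the 48 h rule was looser than before. For the sets other than the late features, no other library was left out. With TMM-scaled CPM they gave 140, 89, 47 and 54. The difference in size between the sets was not tested.

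All 155 late features passed the low-count filter of a fit across 76273 features (edgeR quasi-likelihood test with TMM factors, Benjamini-Hochberg adjusted p below 0.05). Between 72 h and CK, 59 of them were called higher, where 2.06% of all features tested were. Against 24 h 26 were called higher, where 0.152% of all were, and against 48 h 56, where 1.04% of all were. Nothing is read from these counts, because the same contrasts chose the features and these comparisons share the T72 libraries. In this fit 14 late features were called higher against all 3 other times and 75 against none. The same overlap was not counted over all features, so nothing is read from it either. The median fitted log2 difference of the late features was 0.92 against CK, 0.82 against 24 h and 0.96 against 48 h, beside 0.056, -0.001 and 0.0 for all features tested. Counts with a library left out follow, with the share of all features called higher in brackets. The count against CK was 17 (0.609%) without T72 replicate 1, 31 (0.847%) without T72 replicate 2 and 24 (0.624%) without T72 replicate 3. It was 36 (1.02%) without CK replicate 3, and 35 (0.977%), 32 (0.968%) and 35 (0.979%) without T24 replicates 1, 2 and 3. It was 5 with the T24 libraries averaged to 1, a fit with fewer libraries and 93124 features that called 0.231% of all features higher. The share of all features called higher against CK also moved: it was 0.609% without T72 replicate 1 and 2.86% without T48 replicate 2. The count against 24 h was 0 (0.00122%), 0 (0.00122%) and 1 (0.00609%) without T24 replicates 1, 2 and 3. These fits called almost no feature higher than at 24 h, so their counts say little of the late features. The count against 24 h was 5 (0.028%), 10 (0.0473%) and 5 (0.0475%) without T72 replicates 1, 2 and 3, and 51 (0.3%) without T48 replicate 2. The count against 48 h was 24 (0.434%), 25 (0.44%) and 24 (0.437%) without T24 replicates 1, 2 and 3. It was 30 (0.517%) and 34 (0.873%) without T48 replicates 1 and 2. Without T72 replicates 1, 2 and 3 it was 13 (0.232%), 34 (0.601%) and 18 (0.329%).

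At 24 h and 48 h against CK edgeR called 0 of the 155 late features in either direction, where 4.12% and 0.691% of all features were called. At an unadjusted p below 0.05 there were 5 late features at 24 h (3.23%, where 20% of all features were) and 12 at 48 h (7.74%, where 15.5% were), and DESeq2 called 1 at 24 h and 0 at 48 h, where it called 10.8% and 6.46% of all features. The band of the rule removed features with larger earlier changes, so these counts do not show that the late features were unchanged at 24 h or 48 h.

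A measure that the rule did not use was sought in features that share an assembly number with a late feature. No 2 of the 98328 IDs were equal once the isoform number was removed, so no further isoform of a late feature was listed. Without the suffix as well, 92 late features shared their number with 133 other features, a wider definition chosen after the data were seen. Of the 125 of these that were tested, 2 were called higher and 4 lower at 72 h than in CK (edgeR, adjusted p below 0.05), which is 4.8% where 4.74% of all features were called. Between 72 h and 48 h 2 were higher and 5 lower (5.6%, where 2.35% of all features were called). The 6 calls against CK were 2 without T72 replicate 1 (1.57%, where 1.35% of all features were called). They were 3 without T72 replicate 2 (2.36%, where 2.5% were) and 3 without T72 replicate 3 (2.38%, where 1.4% were). The 7 calls against 48 h were 1 when any T24 library, T48 replicate 1 or T72 replicate 1 or 3 was left out, and 2 without T72 replicate 2. Without T24 replicates 1, 2 and 3 that was 0.787%, 0.787% and 0.794%, where 1.07%, 1.07% and 1.06% of all features were called. Without T48 replicate 1 it was 0.787%, where 1.27% were. Without T72 replicates 1, 2 and 3 it was 0.787%, 1.57% and 0.794%, where 0.418%, 1.73% and 0.728% were. The median fitted log2 difference from CK was -0.04, against 0.056 for all features. Features with equal numbers and different suffixes had a median Pearson correlation of -0.01 across the 12 libraries in 3816 pairs, against 0.02 over all pairs of the 20612 features, so an equal number with another suffix is not taken to mean the same gene.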

How the data were processed

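The table deposited by the authors gives estimated counts, to judge by its fractional values and unequal column totals, with 1 column per sample. Per the labels' protocols, total RNA was extracted with TRIzol and sequenced as 150 bp read pairs on an Illumina instrument. Per the submitters' processing notes, Trimmomatic was used. For the assembler, aligner, counting tool and strand setting, a name or version was not given in the sources used here. All 12 columns were matched to samples by title.

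CPM was computed on column totals. Estimated counts were rounded, filtered with edgeR's filterByExpr, scaled with TMM and fitted with edgeR 4.0.16 (R 4.3.3) as 1 mean per group over 12 libraries. Groups were compared in pairs by quasi-likelihood contrasts (two-sided) with Benjamini-Hochberg adjustment over all features. DESeq2 1.42.0, other filters and scalings, a replicate block and left-out libraries were alternatives. Scripts were tested on simulated data with planted rises, most of them larger than the median rise of the late features. These tests were checks of the scripts, and nothing about the late features is read from them. The 2 named features are the late features with the largest ratio of (T72 mean + 1) to (CK mean + 1) and with the highest T72 mean; the rule named no fallen feature, since none shared an ID without isoform number. Members, comparisons and lists were chosen with earlier results of these data known.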

Additional observations from a re-analysis of the deposited data

How the results depend on the processing

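With a single library left out, the criteria gave 132 to 227 features, and the limit of 200 was not applied to these counts. Those over 200 were 227 without T72 replicate 2 and 213 without T72 replicate 3. Of these, 146 and 130 were among the 155. With a T72 library left out, fewer T72 libraries have to lie above the others. The number of late features was 27 with a 2-fold threshold, 77 with the narrower band of 20% below to 25% above CK and 101 with a minimum mean of 10 CPM. Each of these 3 stricter settings keeps a part of the 155 by construction. Counts of late features called moved with the fit, and so did the share of all features called, which stands in brackets. Of 155, those higher at 72 h than in CK numbered 59 (2.06%), and 98 with DESeq2 (5.26%), 5 with the 24 h libraries averaged to 1 (0.231%), 33 with only the 2 groups compared (1.26%), and 17 to 74 with a library left out. Those higher than at 24 h numbered 26 (0.152%), and 86 with DESeq2 (1.02%), 16 with no low-count filter (0.0814%), 123 with only the 2 groups compared (2.13%), and 0 to 51 with a library left out. With the 24 h libraries averaged this contrast has an arm of 1 sample and called 0 of 93124 features, so its 0 late features say nothing of them. Those higher than at 48 h numbered 56 (1.04%), and 103 with DESeq2 (3.25%), 5 with the 24 h libraries averaged (0.0848%), 0 with only the 2 groups compared, which called 0 of 61924 features, and 13 to 61 with a library left out. Those called at 24 h against CK numbered 0 (4.12%), and 1 with DESeq2 (10.8%) and 0 to 1 with a library left out. The 1 came without CK replicate 1 (2.46%). At 48 h these were 0 (0.691%), and 0 to 2 with a library left out. The 2 came without T48 replicate 2 (3.63%). At the lowest and highest counts with a library left out, 0.609% and 2.86% of all features were called higher at 72 h than in CK. Against 24 h these shares were 0.00122% and 0.3%, and against 48 h 0.232% and 1.14%. The cause of these moves was not tested. Library totals as the only scaling, chosen after seeing the data, gave 82 (2.89%), 20 (0.138%) and 59 (1.15%) late features higher than CK, 24 h and 48 h. The replicate numbers of the titles did not pair the libraries: 3 of 18 correlations of deviations between libraries of equal number passed 0.1 (range -0.21 to 0.17), and 2 of 12 libraries correlated best with their own number. The fit with the replicate block called 47 (1.29%), 8 (0.038%) and 43 (0.669%) late features higher than CK, 24 h and 48 h. The 6 features of equal number and another suffix that were called against CK (4.8%, where 4.74% of all features were) became 13 with DESeq2 (10.4%, where 12.1% were) and 2 with the 24 h libraries averaged (1.52%, where 0.714% were). The 2 planned comparisons of further isoforms could not be made, because no 2 IDs are equal without the isoform number. The smallest value of a late feature in any library was 19.9 counts, and the part of depth in the choice near the 1.5-fold threshold was not tested.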
